A study of Glycine max with 54 samples.

Results

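The 150 genes described here were chosen in leaves of the susceptible soybean genotype Dongnong47 at 48 hours after infestation (HAI) with the soybean aphid. They were chosen by their measured expression, as the genes with the widest gap between mock and infested plants. For each of the 32958 genes with identifiers on chromosomes 1 to 13, counts were scaled to CPM on the sum of those chromosomes (the usual per-library scaling of read counts), and absent values were set to 0. The score of a gene was log2 of the ratio between its lowest CPM in the 3 mock libraries and its highest CPM in the 3 infested libraries, with 1 CPM added to each. The 150 highest scores were taken, 0.455% of the genes of these chromosomes, out of 53971 loci in the whole series. Because measured values chose the genes, their values in Dongnong47 at 48 HAI are a description, and tests were made only in the other genotypes and times.

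The series compared leaves of Dongnong47, of the antixenotic P203 and of the antibiotic P746, each with 6 caged aphids on a leaflet (infested) or with an empty cage (mock), at 24, 48 and 96 HAI. Each of the 18 groups held 3 independent biological replicates, 54 libraries in all, and p-values measure the spread between these replicates. All plants were at the same vegetative stage and under the same long-day photoperiod, and all groups wore the cage. In antixenosis a plant deters aphids from settling, and in antibiosis it impairs their growth or reproduction, whereas on a susceptible plant the colony grows. Aphids feed from the phloem through a stylet, and plant defence against them is usually described through the hormones jasmonic acid (JA) and salicylic acid (SA), callose at the sieve plates and reactive oxygen species. In RNA from whole leaf pieces, fewer cells of a type and less RNA per cell cannot be told apart.

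Library totals ran from 16596469 to 34982790 estimated counts, with 20539572 to 21120029 in the mock and 16992756 to 18243051 in the infested libraries that chose the genes. Several libraries stood apart from their labels in genes that separated the genotypes in mock leaves at 24 HAI. Of 79 genes that separated Dongnong47 from P203, the library labelled Dongnong47 96 HAI infested 1 was on the Dongnong47 side for 6.33%, where the other Dongnong47 libraries were for 81.0% to 100%. Of 77 genes that separated P203 from P746, the 3 libraries labelled P746 24 HAI infested were on the P203 side for 96.1%, 3.90% and 49.4%, and the 12 libraries labelled P746 at 48 and 96 HAI for 57.1% to 97.4%. The library labelled P746 48 HAI infested 3 was on the Dongnong47 side for 79.7% of the first set. At 96 HAI, mock and infested libraries shared a median of 1.58% of their assembled loci, against 66.4% within mock and 52.6% within infested libraries, so that infestation and a difference in processing cannot be told apart at that time. The shares between mock and infested libraries were 60.6% at 24 HAI and 51.9% at 48 HAI.

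In Dongnong47 at 48 HAI, the 150 genes together carried 15.5%, 15.8% and 17.8% of the chromosome 1 to 13 counts in the mock libraries and 5.60%, 6.25% and 7.85% in the infested libraries. The median gene had a mean of 196 CPM in mock and 59.8 CPM in infested leaves. Scores ran from 2.29 to 0.74 with a median of 0.91, and the lowest score meant that the lowest mock value was 1.67-fold the highest infested value. With edgeR, 146 of the 150 were called lower, where a call needs an adjusted p under 0.05 together with a log2 fold change of 1 or more in size, and where 5.04% of all tested genes were called lower. The rule used the same 6 libraries, and nothing is read from this count.

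**Figure D1:**
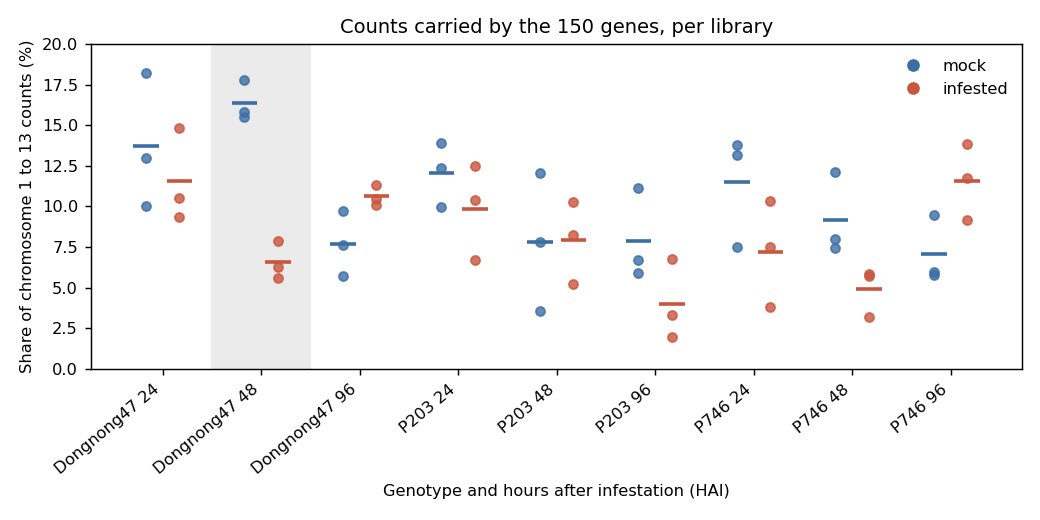
Share of the chromosome 1 to 13 counts (%) carried by the 150 genes in each of the 54 libraries, by genotype and HAI, with mock in blue, infested in red, a point for each library and a bar for the mean of each group. The shaded pair chose the genes. Outside it, the share ran from 1.98% in P203 96 HAI infested 3 to 18.2% in Dongnong47 24 HAI mock 1.

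The gene with the highest score was GLYMA12G06730 on chromosome 12, which none of the tables used here annotates. It had 261, 241 and 403 CPM in the mock libraries of Dongnong47 at 48 HAI and 9.25, 19.8 and 48.4 CPM in the infested ones. GLYMA08G18200 followed with 59.8, 77.3 and 85.4 CPM against 4.87, 6.86 and 12.6 CPM. The next 8 by score were GLYMA11G06130, GLYMA06G04740, GLYMA08G24750, GLYMA08G18170, GLYMA13G02510, GLYMA04G09110, GLYMA09G02460 and GLYMA08G19245, with scores down to 1.83. The groups stood far apart in each of these 10 genes, as the rule required. In Dongnong47 at 24 HAI, GLYMA12G06730 had 522, 46.9 and 299 CPM in mock and 219, 114 and 140 CPM in infested leaves, which overlapped.

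At the other end of the list the difference was small. The last 3 members by rank were GLYMA10G29120, with 27.5, 30.1 and 24.6 CPM in mock and 12.2, 9.51 and 14.3 CPM in infested libraries, GLYMA08G19210 and GLYMA04G05800, all with a score of 0.74. The 3 genes that followed, just outside, were GLYMA11G37580, with 647, 563 and 827 CPM in mock and 249, 337 and 299 CPM in infested libraries, GLYMA08G17610 and GLYMA11G06470, with scores of 0.74, 0.74 and 0.73. The limit therefore lay in a continuous range, and 1384 genes had a score above 0.

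Abundant transcripts were common among the members. In the Dongnong47 48 HAI mock libraries, their mean levels ran from 1.27 to 21556 CPM, and 129 of the 150 had at least 10 CPM. They made up 7.36% of the 1250 genes with at least 100 CPM and 26.5% of the 117 genes with at least 1000 CPM, although the added 1 CPM in the score favours genes with more counts. CPM is not per length, so these are read shares and not levels to rank genes by. The 5 members with the most reads were GLYMA05G25810, GLYMA13G07610, GLYMA05G00620, GLYMA02G47560 and GLYMA05G08590. GLYMA05G25810 had 21180, 19769 and 23720 CPM in mock and 9185, 10940 and 11394 CPM in infested leaves of Dongnong47 at 48 HAI. Its values elsewhere reached as low as 3528 CPM in P203 96 HAI infested 3 and as high as 25156 CPM in Dongnong47 24 HAI mock 1, so that infested leaves of Dongnong47 at 48 HAI were not its lowest.

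The members lay on all 13 chromosomes, from 7 on chromosome 1 to 18 on chromosome 8. Per 1000 genes with at least 1 CPM, this was 4.65 on chromosome 13 and 9.68 on chromosome 12. Next to each other in identifier order were GLYMA09G12580 with GLYMA09G12590 and GLYMA13G25181 with GLYMA13G25200. None of the 150 identifiers matched a gene of the RefSeq table, so most members are given by identifier alone.

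Annotations from the study covered 5 members, all transcription factors of different families. The study chose its transcription factor, JA and SA genes on these libraries. MYB-related proteins carry a MYB-type DNA-binding domain and include clock components in Arabidopsis. LBD proteins are known for lateral organ boundaries, homeobox (HB) proteins for development, SBP proteins for phase change and flowering, and bHLH proteins form a large family that includes regulators of light and JA responses. None of the members was among the 35 JA genes, 18 SA genes, 8 callose synthase genes, 3 catalase genes, 57 WRKY, 85 AP2/ERF, 50 MYB or 33 NAC genes that had values on these chromosomes. Since members were 0.455% of the genes there, lists this short would hold few or no members in any case.

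The MYB-related GLYMA12G10790 had its highest levels in mock leaves of Dongnong47 at 48 HAI, with 12.4, 14.2 and 35.9 CPM against 2.03, 2.77 and 3.39 CPM in infested leaves. In the other 48 libraries it was at or under 1.64 CPM except in 4 libraries labelled P746, with 9.54 and 13.3 CPM in infested leaves at 24 HAI and 1.90 and 9.10 CPM in infested leaves at 48 HAI. The gene was thus nearly silent in mock leaves of P203 at every time and of Dongnong47 at 24 and 96 HAI.

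The homeobox gene GLYMA08G02020 had 18.8, 40.4 and 26.8 CPM in mock and 1.68, 6.97 and 9.73 CPM in infested leaves of Dongnong47 at 48 HAI. It reached 111 CPM in P203 48 HAI mock 2 and 146 CPM in P203 96 HAI infested 3, above any Dongnong47 library. The bHLH gene GLYMA03G38391 went from 5.08, 6.44 and 8.95 to 1.26, 2.40 and 2.52 CPM in Dongnong47 at 48 HAI, and was the only annotated member called in any of the 15 tested comparisons, with a fall of its log2 level by 2.47 ± 0.50 (SE, adjusted p = 0.0175, edgeR) between mock leaves labelled P746 at 48 and 96 HAI. The LBD gene GLYMA08G17990 had at most 2.41 CPM in any library. The SBP gene GLYMA06G36140 had 1.88 to 2.60 CPM in mock and 0.0699 to 0.599 CPM in infested leaves of Dongnong47 at 48 HAI, and reached 16.9 CPM in P203 96 HAI mock 3. Neither of these lowly read genes was called in a tested comparison.

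The levels of the 150 genes in the other groups were first set against the pair that chose them. For each gene the median log2(CPM + 1) of a group was called nearer to the mock or to the infested median of Dongnong47 at 48 HAI. In Dongnong47, the number nearer to the infested state was 28 in mock and 60 in infested leaves at 24 HAI, and 68 and 76 at 96 HAI. P203 had 48 and 58 such genes at 24 HAI, 120 in both treatments at 48 HAI, and 86 and 133 at 96 HAI. Leaves labelled P746 had 46 and 88 at 24 HAI, 88 and 135 at 48 HAI, and 86 and 52 at 96 HAI. The 2 references are the libraries that chose the genes, and replicates differed: in the mock libraries of P203 at 48 HAI, 116, 91 and 38 genes were at or below the highest of the 3 infested reference libraries. In 7 of the 8 other pairs of groups the number differed between treatments, and it was lower in infested leaves only in P746 at 96 HAI. These levels carry no TMM scaling. Scaled by total counts, the median log2 fold change of all genes at 96 HAI was -0.40 in Dongnong47 and 0.29 in P203. The differences in number were not set against the spread between replicates.

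**Figure D2:**
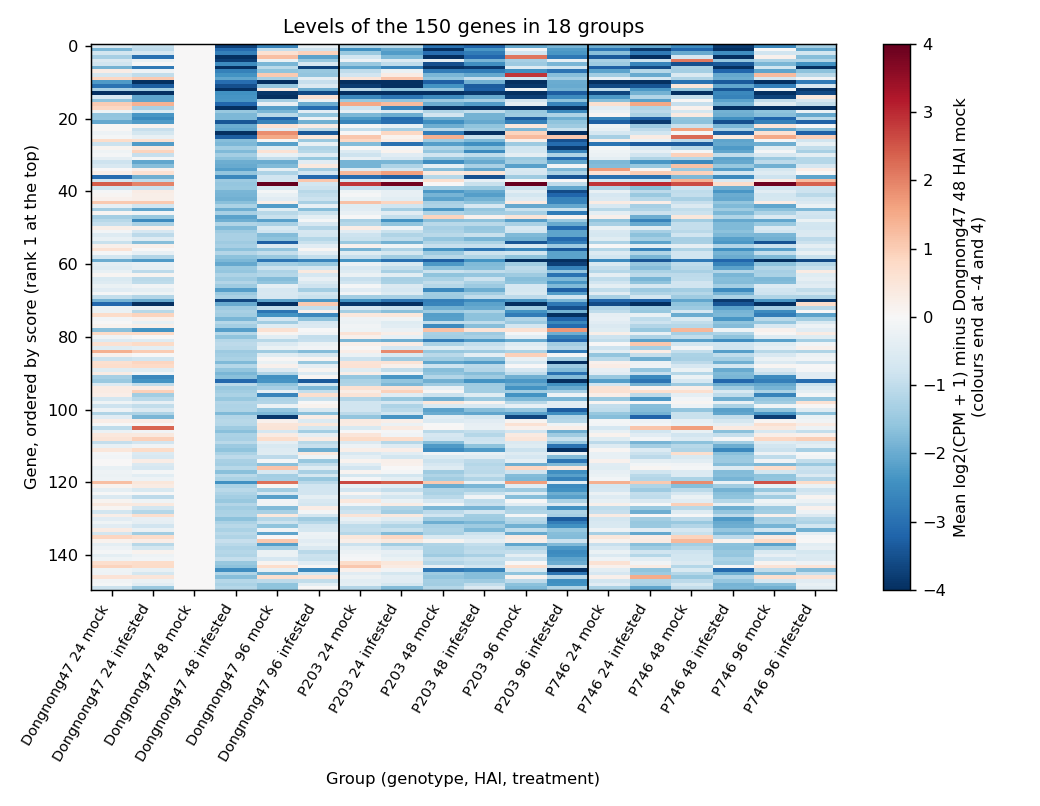
Mean log2(CPM + 1) of each of the 150 genes (vertical axis, by rank of score) in the 18 groups (horizontal axis), minus its mean in mock leaves of Dongnong47 at 48 HAI, with blue for lower, red for higher and colours ending at -4 and 4. The column of infested Dongnong47 leaves at 48 HAI is blue throughout because it chose the genes, and 133 genes were nearer to that state in P203 infested leaves at 96 HAI, where the median log2(CPM + 1) over the genes, 4.98, was the lowest of the 18 groups.

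Replicates of a group differed widely in these genes. The 3 mock libraries of P203 at 48 HAI gave the 150 genes 3.54%, 7.82% and 12.0% of their counts. Mock leaves of Dongnong47 at 24 HAI gave 18.2%, 10.02% and 13%, and mock leaves labelled P746 at 24 HAI gave 13.8%, 7.52% and 13.2%. Mock libraries of Dongnong47 at 48 HAI lay closer together, at 15.5% to 17.8%, and the score favours genes whose replicates are close in that pair.

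In Dongnong47 at 24 HAI, before the time that chose the genes, most members overlapped between mock and infested leaves, as did most expressed genes. Of 147 members tested, edgeR called 1 higher and 0 lower in infested leaves, where 1.08% of all genes were called higher. Before adjustment, 7 members and 2080 of all 23325 genes had a p under 0.05. The member called was GLYMA05G19630, with 1.08, 1.91 and 1.97 CPM in mock and 27.3, 19.1 and 31.3 CPM in infested leaves. All infested libraries lay above all mock libraries, a log2 fold change of 3.94 ± 0.32 (SE, adjusted p = 0.00547), and the call was made whichever library was left out. At 48 HAI the same gene went the other way, from 2.99, 4.29 and 5.85 to 0.489, 1.27 and 1.22 CPM. Over the tested members the median log2 fold change was -0.29, beside -0.06 for all genes, and it was 0.076 without mock 1 and -0.73 without infested 1. Same-numbered mock and infested replicates varied together here, and with the replicate number as a block 7 members were called, 6 of them lower, where 1.69% of all genes were called. DESeq2 called 3 members, 2 of them lower, where it called 2.26% of all genes. Without regard to size, all 3 infested libraries were below all 3 mock libraries in 11 members and above them in 3, where 4.38% of all expressed genes were below and 7.31% above.

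In Dongnong47 at 96 HAI the members did not lie lower as a group in infested leaves. Of the members, of which all but 2 were tested, 7 were called higher and 2 lower, where 0.953% of all genes were called higher and 0.729% lower. An unadjusted p under 0.05 was found for 50 members and for 5702 of all 22775 genes. The median log2 fold change was 0.43 (quartiles -0.22 and 1.36), beside 0.01 for all genes, and it was 0.027 without infested 3 and 0.66 without infested 2. GLYMA01G11870 had 21.1, 20.1 and 58.2 CPM in mock and 633, 748 and 343 CPM in infested leaves, and rose by 4.44 ± 0.61 in log2 (SE, adjusted p = 0.0281). In this gene the mock leaves at 96 HAI were the low ones, since mock leaves of Dongnong47 had at least 196 CPM at the earlier times. GLYMA03G41660 rose from 4.06, 5.43 and 6.88 to 31.6, 17.5 and 19.3 CPM, a log2 fold change of 2.44 ± 0.35 (SE, adjusted p = 0.0313). GLYMA05G27450 was at 0, 0 and 0.161 CPM in mock and at 7.49, 9.69 and 11.9 CPM in infested leaves. GLYMA13G25200 had 0, 0 and 0.0537 CPM against 1.5, 27.1 and 29.3 CPM. Both were almost unread in mock leaves and passed the filter on low counts only through the infested libraries, so that they had to differ, and their calls are counted here and support nothing. Of the 84 calls of members in the 15 tested comparisons, 9 had no library of the lower group at the filter level. The filter needs 3 libraries at that level. GLYMA10G02610 had 2 in its lower group in Dongnong47 and in P203 at 96 HAI, and GLYMA09G02460 had 1 in the latter. In mock leaves between 48 and 96 HAI, GLYMA06G04740 had 2 in P203. In those labelled P746, GLYMA06G07560 and GLYMA10G33710 had 1 and GLYMA08G22000 had 2. These calls too needed the higher group to pass the filter, and are counted without weight.

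The 2 called lower in Dongnong47 at 96 HAI were GLYMA10G02610 and GLYMA11G35130. GLYMA10G02610 had 95.7, 135 and 54.7 CPM in mock and 3.78, 0.285 and 0.977 CPM in infested leaves, a fall of its log2 level by 5.47 ± 0.81 (SE, adjusted p = 0.0336), and the groups did not overlap. GLYMA11G35130 had a log2 fold change of -1.87 ± 0.33 (SE, adjusted p = 0.0468). These counts rested on few libraries. No member was called (0) without mock 2, infested 2 or infested 3, while 4 were called without mock 1, and 2 without mock 3 and 2 without the library labelled infested 1, whose genotype genes went against its label. Of all genes, 5, 1 and 34 were called without mock 2, infested 2 and infested 3. Those called without mock 1, mock 3 and infested 1 were 427, 56 and 8. With the replicate number as a block, since same-numbered replicates varied together, 23 members were called, 21 of them higher, where 4.71% of all genes were called, and DESeq2 called 44 members, 37 of them higher, where it called 12.0%. Scaled by total counts, which moved the median of all genes to -0.40, the members' median was -0.03, and 8 were called higher and 4 lower, where 0.733% of all genes were higher and 1.54% lower. All infested libraries lay above all mock libraries in 39 members and below in 27, where 7.79% of all expressed genes lay above and 31.5% below.

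**Figure D3:**
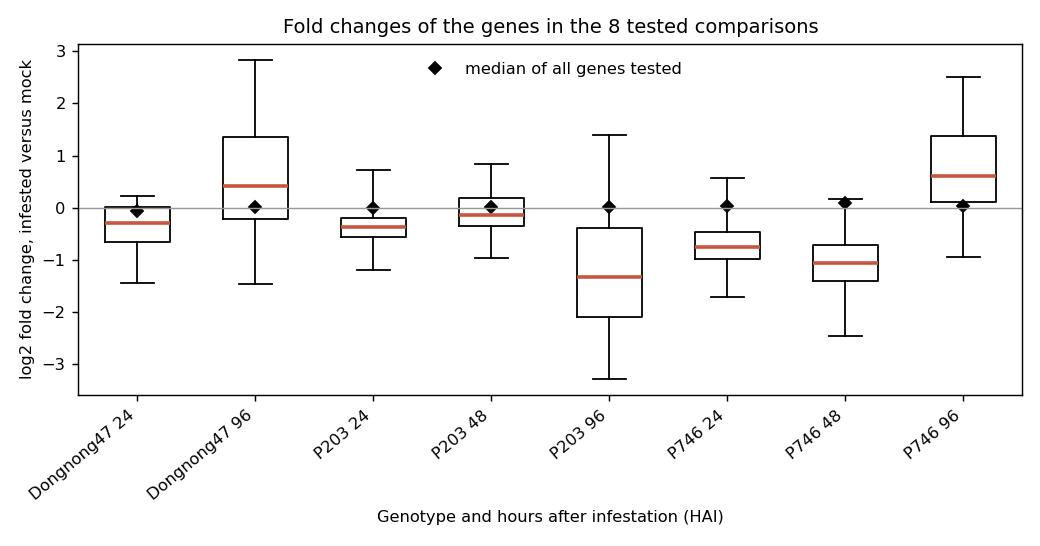
Log2 fold change of the tested members between infested and mock leaves in the 8 tested comparisons (boxes from the 25th to the 75th percentile, red line at the median, whiskers at the 5th and 95th percentiles), with a black diamond for the median of all genes tested. The medians of the members run from -1.32 in P203 at 96 HAI to 0.61 in P746 at 96 HAI, and those of all genes stay near 0.

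The same genes did not move detectably in P203 at 24 and 48 HAI. At 24 HAI edgeR called 0 of 147 members, as it called 0.0% of all genes. DESeq2 also called 0 members, where it called 75 of all 29750 genes. The unadjusted edgeR p was under 0.05 in 5 members and 722 of all 22505 genes. The members' median log2 fold change was -0.37, beside -0.01 for all genes, and it was -0.12 without infested 1, -0.14 without mock 3 and -0.63 without infested 2. All infested libraries were below all mock libraries in 5 members and above in 1, where 1.98% of all expressed genes were below and 5.83% above. At 48 HAI, the time that chose the genes in Dongnong47, edgeR called 0 of 143 members and 0.0% of all genes. DESeq2 called 0 members, where it called 152 of all 29786 genes. Here 5 members and 1398 of all 22398 genes had an unadjusted edgeR p under 0.05. The median of the members was -0.14, beside 0.01 for all genes, and it was 0.54 without mock 3 and 0.13 without infested 2. Infested leaves of P203 at 48 HAI lay below mock leaves in all libraries in 4 members and above in 6, where 6.12% of all expressed genes lay below and 6.36% above. GLYMA12G06730, first by score, had 43.2, 11.8 and 93.9 CPM in mock and 71.2, 19.1 and 21.5 CPM in infested leaves of P203 at that time, which overlapped.

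At 96 HAI, P203 was the tested pair in which the most members were called lower in infested leaves. Of 146 tested, 13 were called lower and 3 higher, where 3.56% of all genes were called lower and 3.57% higher. Before adjustment, p was under 0.05 in 69 members and in 6511 of all 23208 genes. The median log2 fold change was -1.32 (quartiles -2.09 and -0.38), beside 0.02 for all genes, and it was -0.71 without mock 3 and -1.98 without infested 1. GLYMA10G31110 fell from 162, 128 and 172 CPM in mock to 3.8, 3.05 and 2.48 CPM in infested leaves, by 5.96 ± 0.41 in log2 (SE, adjusted p = 0.0113). GLYMA10G02610 fell from 127, 157 and 212 to 1.13, 0.226 and 1.49 CPM, by 7.79 ± 0.75 (SE, adjusted p = 0.0134). GLYMA11G14210 fell from 263, 321 and 290 to 44.4, 14.5 and 15.7 CPM, by 3.84 ± 0.56 (SE, adjusted p = 0.0226). In all 3 genes every infested library lay below every mock library by a wide margin, while GLYMA10G02610 needed the mock libraries to pass the filter.

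GLYMA02G45720 and GLYMA09G02460 were also called lower in P203 at 96 HAI. The first had 11.8, 17.6 and 10.05 CPM in mock and 4.37, 1.36 and 2.84 CPM in infested leaves (log2 fold change -2.45 ± 0.46, adjusted p = 0.0353). The second, ninth by score, had 36.4, 34.4 and 49.6 CPM in mock and 2.79, 0 and 0.338 CPM in infested leaves (-5.60 ± 1.20, adjusted p = 0.0437). It needed the mock libraries to pass the filter. The 3 called higher were GLYMA01G11870, with 42.4, 40.5 and 22.2 CPM in mock and 329, 121 and 179 CPM in infested leaves (2.33 ± 0.43, adjusted p = 0.034), GLYMA05G27450 and GLYMA13G25200. The last was listed at 0 in all 3 mock libraries and had 9.75, 3.8 and 3.3 CPM in infested leaves, and it and GLYMA05G27450 again passed the filter only through the infested libraries. No member was called (0) without mock 1, mock 2 or infested 2, while 2 were called without mock 3, 10 without infested 3 (5.24% of all genes) and 26 without infested 1 (4.05%). The genes called in all were 0, 1 and 3 without mock 1, mock 2 and infested 2, and 334 without mock 3. DESeq2 called 59 members, 53 of them lower, where it called 13.4% of all genes. All infested libraries lay below all mock libraries in 61 members and above in 10, where 10.7% of all expressed genes lay below and 24.8% above.

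The members called in Dongnong47 and in P203 at 96 HAI, in fits that shared no library, had 4 genes in common, 44.4% of the 9 and 25% of the 16. GLYMA01G11870 was higher and GLYMA10G02610 lower in infested leaves of both. GLYMA10G02610 had 2 infested libraries at the filter level in each fit, fewer than the 3 the filter needs. Its part in the overlap supports nothing. The others, GLYMA05G27450 and GLYMA13G25200, passed the filter only through the infested libraries in both fits, and their part in the overlap supports nothing. The overlap over all called genes was not counted. At this time infestation and a difference in processing cannot be told apart. GLYMA10G02610 was also the only member called lower in infested leaves in more than 1 tested comparison, of 14 called lower at least once. Both of its calls needed the mock libraries to pass the filter.

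In leaves labelled P746 the median change of the members was negative at 24 and 48 HAI, and edgeR called none of them. At 24 HAI edgeR called 0 of 147 members, where it called 0.00422% of all genes. Without adjustment, 16 members and 3059 of all 23703 genes had a p under 0.05. The median log2 fold change was -0.75, beside 0.03 for all genes. DESeq2 called 4 members, all lower, where it called 3.67%. All infested libraries were below all mock libraries in 24 members and above in 3, where 4.73% of all expressed genes were below and 19.4% above. The infested libraries at this time disagreed with each other in the genes that separate P203 from P746, and without infested 1, 2 and 3 the median was -0.77, -1.14 and -0.45, with 0 members and 0 of all genes called each time.

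At 48 HAI in leaves labelled P746, edgeR called 0 of 147 members and 0.0% of all genes. The unadjusted p was under 0.05 in 30 members and 2004 of all 22538 genes. The members' median log2 fold change was -1.05, beside 0.09 for all genes, and it ran from -1.39 to -0.78 when any library was left out. DESeq2 called 11 members, 10 of them lower, where it called 1.51%. All infested libraries were below all mock libraries in 68 members and above in 4, where 4.80% of all expressed genes were below and 9.58% above. Without infested 2, 25 members were called, 24 of them lower, where 6.04% of all genes were called. Without infested 3, the library on the Dongnong47 side of the genotype genes, 0 members and 0 of all genes were called, and the members' median was -0.80. GLYMA12G06730 had 79.6, 43.1 and 36.6 CPM in mock and 34.2, 16.4 and 13.3 CPM in infested leaves here, which did not overlap (log2 fold change -1.45 ± 0.46, adjusted p = 0.556).

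At 96 HAI in leaves labelled P746 the median change was positive, again with no member called by edgeR. EdgeR called 0 of 143, where it called 0.507% of all genes. A p under 0.05 before adjustment was found for 47 members and 4941 of all 23094 genes. The median log2 fold change was 0.61 (quartiles 0.12 and 1.38), beside 0.03 for all genes. DESeq2 called 43 members, 39 of them higher, where it called 7.60% of all genes. Without mock 1, 3 members were called, and without infested 2, 2 were called, all higher. In those fits 94 and 19 of all genes were called. All infested libraries were above all mock libraries in 41 members and below in 8, where 7.62% of all expressed genes were above and 22.4% below. GLYMA05G25810 had 15981, 8897 and 8438 CPM in mock and 24925, 18123 and 16574 CPM in infested leaves, the reverse of its order in Dongnong47 at 48 HAI.

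The difference between genotype labels at 96 HAI was tested as an interaction over 12 libraries, a comparison added after seeing the data. For P203 against Dongnong47, edgeR called 0 of 150 members and 0.0% of all genes, with a lowest adjusted p of 0.285 among members. An unadjusted p under 0.05 was found for 80 members and 3801 of all 24420 genes. The infested against mock difference was lower in P203 for 137 of the 150, with a median difference of -2.04 on the log2 scale. DESeq2 called 15 members, all lower in P203, where it called 1.89% of all genes. For P203 against leaves labelled P746, edgeR called 0 of 149 members and 0.0% of all genes, with a lowest adjusted p of 0.322 among members. Here 93 members and 3302 of all 24396 genes had an unadjusted p under 0.05. The difference was lower in P203 for 134 members, while DESeq2 called 57, 56 of them lower in P203, where it called 1.57%. For leaves labelled P746 against Dongnong47, edgeR called 0 members and 0.0% of all genes. DESeq2 called 0 members, where it called 20 of all 31149 genes. The unadjusted edgeR p was under 0.05 in 3 members and 667 of all 24324 genes. The libraries of these interactions are those in which infestation and processing cannot be told apart. Mock libraries labelled P746 at 96 HAI lay on the P203 side for 96.1% to 97.4% of the genes that separated P203 from P746.

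**Figure D4:**
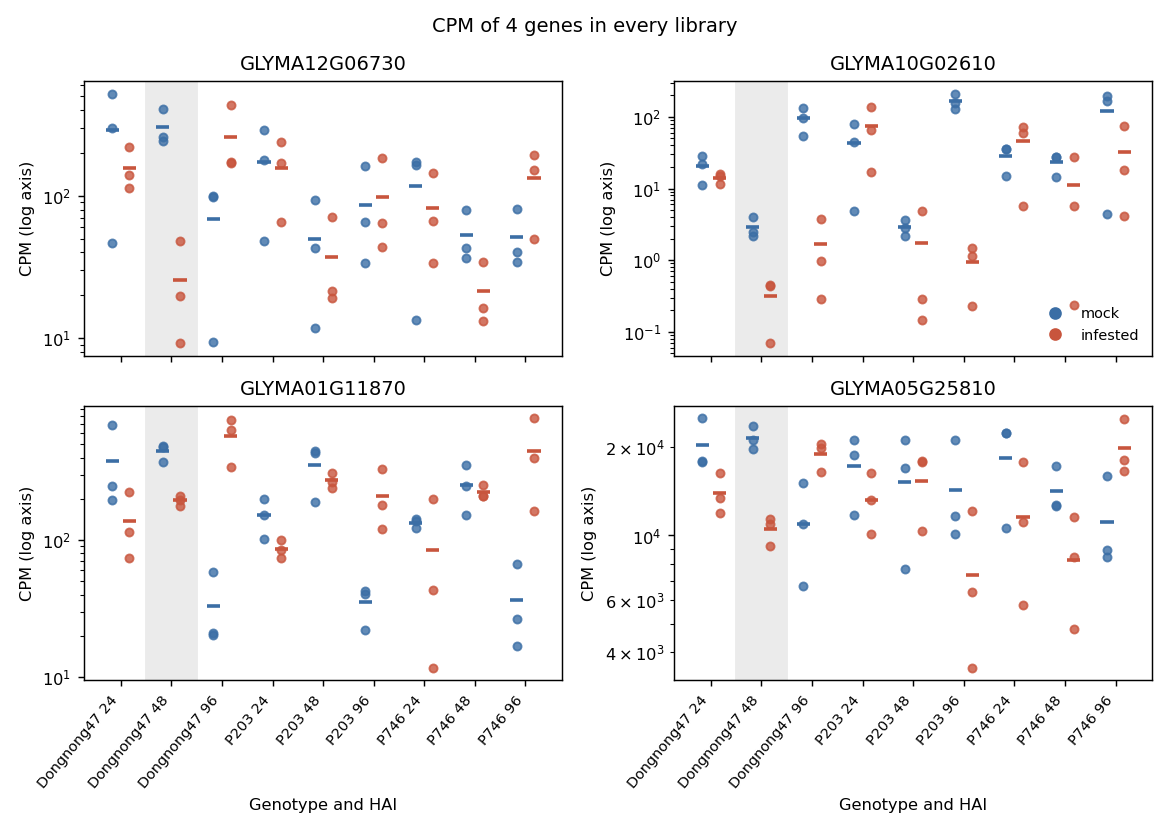
CPM (log axis) of 4 members in all 54 libraries, with mock in blue, infested in red and bars at the group means. The shaded pair chose the genes. GLYMA12G06730 overlaps between treatments outside that pair except in Dongnong47 at 96 HAI and in P746 at 48 HAI, GLYMA10G02610 is high in mock and low in infested leaves of Dongnong47 and P203 at 96 HAI, GLYMA01G11870 has its lowest group means in the mock leaves of 96 HAI, and GLYMA05G25810 is among the genes with the most reads everywhere.

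Mock leaves alone also differed between times in these genes. In Dongnong47, 12 of 149 members were called lower and 0 higher at 96 than at 24 HAI, where 2.6% of all genes were called lower. Before adjustment, 76 members and 6628 of all 23231 genes had a p under 0.05. The members' median log2 fold change was -1.16, beside 0.01 for all genes. GLYMA09G24530 had 34.8, 42.1 and 38.2 CPM at 24 HAI and 4.88, 2.19 and 3.92 CPM at 96 HAI, a fall by 3.83 ± 0.34 in log2 (SE, adjusted p = 0.00694). GLYMA13G24130 fell from 33.1, 101 and 31.1 to 3.74, 8.61 and 5.75 CPM, by 3.58 ± 0.54 (SE, adjusted p = 0.0216), and GLYMA05G27450 had 10.1, 5.91 and 5.79 CPM at 24 HAI and 0, 0 and 0.161 CPM at 96 HAI, passing the filter only through 24 HAI. Without 24 HAI mock 2, in which the 150 genes carried the smallest share of its group, 36 members were called, where 12.8% of all genes were. Without any other library 1 to 3 members were called, where 116 to 579 of all genes were. DESeq2 called 72, 68 of them lower, where it called 13.5%. Scaled by total counts, which moved the median of all genes to 0.45, 11 members were called lower and 5 higher, where 1.63% of all genes were lower and 6.75% higher.

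In P203 mock leaves, 1 of 144 members was called lower at 48 than at 24 HAI and 0 higher, where 0.0969% of all genes were called lower. An unadjusted p under 0.05 was found for 50 members and 4127 of all 22700 genes. The members' median log2 fold change was -1.14, beside -0.0006 for all genes. It ran from -1.59 to -0.83 when any library was left out. The member called was GLYMA10G16790, with 63.2, 53.6 and 113 CPM at 24 HAI and 4.81, 4.46 and 7.43 CPM at 48 HAI (log2 fold change -4.03 ± 0.50, adjusted p = 0.0427). No member was called (0), nor any other gene, when any of the 6 libraries was left out. DESeq2 called 35 members, 33 of them lower, where it called 6.56%. Between 48 and 96 HAI, 2 of 146 members were called lower and 2 higher in P203 mock leaves, where 2.2% of all genes were called lower and 1.85% higher. GLYMA10G02610 rose from 2.19, 3.61 and 2.83 to 127, 157 and 212 CPM, by 5.91 ± 0.46 in log2 (SE, adjusted p = 0.00871). GLYMA06G04740 rose from 2.70, 2.56 and 0.413 to 297, 437 and 832 CPM, by 8.28 ± 0.97 (SE, adjusted p = 0.0176), and GLYMA01G11870 fell from 429, 444 and 189 to 42.4, 40.5 and 22.2 CPM, by 3.29 ± 0.40 (SE, adjusted p = 0.019). In all 3 the times did not overlap, while GLYMA06G04740 needed the 96 HAI libraries to pass the filter. The fourth was GLYMA05G28500, lower at 96 HAI.

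Same-numbered mock replicates of P203 at 48 and 96 HAI varied together, and with the replicate number as a block 18 members were called, 15 of them higher at 96 HAI, where 8.41% of all genes were called. DESeq2 called 24 members, 14 of them higher, where it called 11.0%. Scaled by total counts, 4 were called higher and 2 lower, where 1.57% of all genes were higher and 1.7% lower. No member was called (0) without 48 HAI mock 2, 96 HAI mock 1 or 96 HAI mock 2, while 3 were called without 48 HAI mock 1, 2 without 96 HAI mock 3, and 11 without 48 HAI mock 3, where 7.0% of all genes were called. The fits without 48 HAI mock 2, 96 HAI mock 1 and 96 HAI mock 2 called 22, 6 and 7 genes in all. Those without 48 HAI mock 1 and 96 HAI mock 3 called 341 and 129. The median log2 fold change of the members was 0.28, and it was -0.15 without 96 HAI mock 3 and 0.88 without 48 HAI mock 3.

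Between 24 and 48 HAI in mock leaves labelled P746, 4 of 147 members were called lower and 6 higher, where 4.39% of all genes were called lower and 4.81% higher. The members' median log2 fold change was -0.49, beside -0.05 for all genes, and -0.73 to -0.34 when any library was left out. GLYMA08G08130 rose from 9.71, 9.69 and 10.1 to 95.5, 67.6 and 78.4 CPM, by 2.82 ± 0.21 in log2 (SE, adjusted p = 0.00433). GLYMA06G04740 rose from 9.44, 6.66 and 13.5 to 60.1, 85.6 and 56.3 CPM, by 2.55 ± 0.33 (SE, adjusted p = 0.0134), and GLYMA10G16790 fell from 43.5, 31.5 and 42.6 to 12.5, 12.6 and 12.1 CPM, by 1.88 ± 0.23 (SE, adjusted p = 0.0109). GLYMA10G16790 was thus called lower at 48 than at 24 HAI in mock leaves of both P203 and P746, in fits that shared no library. The mock libraries of 24 HAI, on which the genotype genes were chosen, lay on their P746 side and those of 48 HAI on the P203 side for 90.9% to 96.1%, so that time and genotype cannot be told apart here. Without 24 HAI mock 2, 58 members were called, 39 of them lower, where 33.6% of all genes were called, and without 48 HAI mock 3, 5 were called, while 1 or 2 were called without any other library. All genes called numbered 614 without 48 HAI mock 3 and 96 to 252 without those other libraries. DESeq2 called 32, 20 of them lower, where it called 16.7%, and with total counts 2 were lower and 6 higher, where 2.87% of all genes were lower and 6.92% higher.

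The largest number of called members was found between 48 and 96 HAI in mock leaves labelled P746, with 21 lower and 10 higher of 147, where 7.75% of all genes were called lower and 8.65% higher. The members' median log2 fold change was -0.48, beside 0.01 for all genes, and -0.78 to -0.22 when any library was left out. GLYMA05G28500 fell from 104, 121 and 73.9 to 24.4, 21.3 and 18.5 CPM, by 2.37 ± 0.22 in log2 (SE, adjusted p = 0.00265). GLYMA06G07560 fell from 18.1, 21.0 and 17.7 to 1.44, 0.250 and 0.239 CPM, by 5.05 ± 0.68 (SE, adjusted p = 0.00609), and GLYMA05G27450 had 4.84, 2.57 and 5.40 CPM at 48 HAI and 0, 0 and 0.120 CPM at 96 HAI, passing the filter only through 48 HAI. GLYMA06G07560 also needed the 48 HAI libraries to pass the filter. GLYMA08G18200, second by score, rose from 9.52, 7.71 and 5.14 to 132, 40.1 and 73.5 CPM, by 3.33 ± 0.48 (SE, adjusted p = 0.00729), a gene named here for its rank. Without 96 HAI mock 3, 12 members were called, where 5.65% of all genes were, 15 without 48 HAI mock 1 (7.59%) and 38 without 96 HAI mock 1 (15.5%). DESeq2 called 53, 40 of them lower, where it called 17.5%. Scaled by total counts, 19 were lower and 17 higher, where 5.69% of all genes were lower and 11.1% higher. Of the 12 members called in mock leaves of Dongnong47 between 24 and 96 HAI, 6 were among these 31, 50% and 19.4% of the lists, and all 6 were lower at 96 HAI in both. GLYMA05G27450 and GLYMA13G25200, among these 6, passed the filter only through the earlier time in both fits, and their part in the overlap supports nothing. The overlap over all called genes was not counted.

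Between mock leaves of the genotypes at 24 HAI, no difference in the members passed the test. For P203 against Dongnong47, edgeR called 0 members, where it called 0.182% of all genes, and DESeq2 called 3, all lower in P203, where it called 1.17%. The unadjusted edgeR p was under 0.05 in 12 members and 1097 of all 22468 genes. The members' median log2 difference was -0.31, beside -0.01 for all genes, and it was 0.12 without Dongnong47 mock 1. For P746 against Dongnong47, edgeR called 0 members, where it called 0.348% of all genes, and DESeq2 called 5, all lower in P746, where it called 1.73%. Here 11 members and 1752 of all 22726 genes had an unadjusted edgeR p under 0.05. The median of the members was -0.56, beside -0.03 for all genes, and it was -0.13 without Dongnong47 mock 1.

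Over all 15 tested comparisons, 58 of the 150 members were called at least once, 15 at least in 2 and 7 at least in 3, and 92 were called in none. Of all genes tested at least once, 27.6% were called at least once, 9.28% at least in 2 and 3.17% at least in 3. A count of 137 members passed the filter on low counts in every comparison.

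The members varied together outside the libraries that chose them. Over the other 48 libraries, each gene's log2(CPM + 1) was correlated with the sum of the standardized levels of the other members. Among the 149 members with a mean of at least 1 CPM, the median of Pearson's r was 0.657, with a range from -0.46 to 0.96, and 63.8% had at least 0.5. Among the 22903 other genes with that level, the median was -0.28 and 4.52% had at least 0.5. The points share libraries, groups, depth and the CPM denominator, of which the members themselves made up to 18.2%, so that these values are a description. With the group means taken out, the median was 0.706 in members and -0.25 in other genes, and 69.1% and 4.21% had at least 0.5. The covariation was therefore present between replicates of the same group. The highest value was that of GLYMA12G05030, and the lowest that of the MYB-related GLYMA12G10790, at -0.46, followed by the homeobox gene GLYMA08G02020 at -0.40. Those values lie beside the median of -0.28 of the other genes, and with the group means taken out GLYMA08G02020 had -0.16. In all, 11 members had a negative r.

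**Figure D5:**
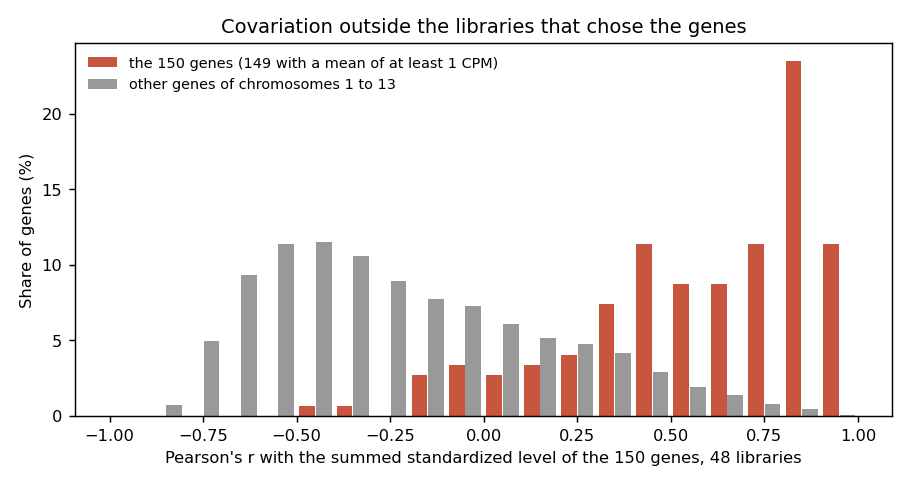
Share of genes (%) by Pearson's r between a gene's level and the summed standardized level of the 150 genes over the 48 libraries that did not choose them, with the members in red and the other genes of chromosomes 1 to 13 in grey. The members have a median of 0.657 and the other genes of -0.28.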

How the data were processed

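RNA-seq was analysed for 54 libraries of soybean leaves. The authors sequenced paired ends on an Illumina HiSeq instrument, mapped clean reads to the soybean genome with HISAT2 and counted reads per gene with StringTie, while the submitters' processing notes also name CASAVA 1.8 and Bowtie. The authors deposited 1 file of estimated counts for each library, without normalization. Between 18.0% and 23.3% of the values in a file carried decimals, and all were rounded before testing. Lines without an identifier or value (7 libraries) were left out. Totals ran from 16596469 to 34982790, and replicates differed by far more than counting noise (the smallest chi-square per gene of any replicate pair was 24.9), so that precision rests on 3 replicates.

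The 150 genes and the lists were chosen with earlier results of these data known. Genes of chromosomes 1 to 13 alone were fitted, 6 libraries at a time, with edgeR 4.0.16 in R 4.3.3 (quasi-likelihood F test after TMM scaling and filterByExpr at a count of 10 and a total of 15, with Benjamini-Hochberg adjustment over all genes tested), limma 3.58.1 and the package data.table, version 1.17.8. The thresholds for a call were those of the study, 0.05 for the adjusted p and 1 for the size of the log2 fold change, and SE was taken from the fold change and its F value. Adjusted p is from edgeR unless DESeq2 1.42.0 is named. Figures used Python 3.11.15 and matplotlib 3.10.9. Fits were tested on simulated data.

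Named genes were the 10 highest scores, every annotated member, in each comparison the 3 called members with the smallest adjusted p, the last 3 members and the 3 genes after them by rank, the 5 called lower in infested leaves most often (1 was called lower in 2 comparisons and the others in 1, with ties broken by score) and the 5 with the most reads. Others named were chosen after their values were seen. Genotype genes differed by more than 2 log2 units between all mock libraries of 2 genotypes at 24 HAI (pseudocount 0.5, at least 2 CPM in the higher group), members left out. Non-overlap was counted on CPM, and the expressed genes were those with at least 1 CPM in at least 1 library of the comparison. Members were counted whether or not they reached that level. Correlation used genes with a mean of at least 1 CPM.

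Deviations of same-numbered libraries from their group means were correlated to check for pairing (genes with at least 5 CPM). Every pair exceeded 0.1 in Dongnong47 at 24 HAI (0.321 to 0.678) and 96 HAI (0.117 to 0.368), in P203 mock leaves at 48 and 96 HAI (0.230 to 0.539) and between P203 and Dongnong47 mock leaves at 24 HAI (0.108 to 0.268), and not in the other 11 comparisons. No label says that a number marks a shared plant or day. Alternatives were DESeq2, RLE normalization, total counts, no filter, all loci, adjusted p alone, the replicate block and each library left out in turn. The interactions at 96 HAI were added after seeing the data.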

Additional observations from a re-analysis of the deposited data

Results flagged for a closer look

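At 96 HAI the difference between infested and mock leaves differed between genotype labels for 15 members by a DESeq2 interaction test of P203 against Dongnong47, where 1.89% of all genes were called. By that of P203 against P746 it differed for 57 members, where 1.57% of all genes were called, with the same thresholds as elsewhere. All 15, and 56 of the 57, were lower in P203. EdgeR called 0 members in both, with a lowest adjusted p among members of 0.285 and 0.322. Its unadjusted p was under 0.05 for 80 and 93 members, and for 3801 and 3302 of all 24420 and 24396 genes. The library labelled Dongnong47 96 HAI infested 1 entered the first interaction and the libraries labelled P746 the second, and their part in the DESeq2 calls was not tested. At 96 HAI the mock libraries labelled P746 lay on the P203 side for 96.1% to 97.4% of the genes that separated P203 from P746. The infested ones did for 74.0% to 93.5%. Infestation and processing cannot be told apart at that time.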

How the results depend on the processing

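Counts of called members depended on the tool and on single libraries. DESeq2 called more members than edgeR in every comparison with a call by either: in infested against mock leaves 3 against 1 (Dongnong47 24 HAI), 44 against 9 (Dongnong47 96 HAI), 59 against 16 (P203 96 HAI), and 4, 11 and 43 against 0 (P746 24, 48 and 96 HAI); in mock leaves 72 against 12 (Dongnong47 96 against 24 HAI), 35 against 1 and 24 against 4 (P203 48 against 24 and 96 against 48 HAI), 32 against 10 and 53 against 31 (P746, same times), and 3 and 5 against 0 (P203 and P746 against Dongnong47); in the interactions 15 and 57 against 0. With the replicate block, the paired comparisons gave 7, 23 and 18 members as reported. Between P203 and Dongnong47 mock leaves it gave 0 members, where it called 0 of all 22468 genes. Where replicates share only a number, the block gave 0 for P203 96 HAI, 2 for Dongnong47 mock 96 against 24 HAI, 0 for P203 mock 48 against 24 HAI and 1 for P746 mock 48 against 24 HAI, and turned the median of P203 48 HAI to 0.0052. In the same order of counts, it called 0 of 23208, 122 of 23231, 0 of 22700 and 217 of 22757 genes in all. Fits of all loci called 8 members (P203 96 HAI), 2 (P746 96 HAI), 3 (P203 mock 48 against 24 HAI) and 6 (P746 mock 48 against 24 HAI). In the same order, those fits called 1634 of 32819, 1612 of 33254, 2350 of 33725 and 2841 of 33557 loci. Total counts turned the median of Dongnong47 96 HAI to -0.029, while putting the median of all genes at -0.40 to 0.45 in the tested comparisons. The cause was not tested.

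With a library left out, the members called were 1 throughout for Dongnong47 24 HAI, 0 to 4 for Dongnong47 96 HAI, 0 throughout for P203 24 and 48 HAI and P746 24 HAI, 0 to 26 for P203 96 HAI, 0 to 25 for P746 48 HAI and 0 to 3 for P746 96 HAI. Among all genes these fits called 49 to 345 (Dongnong47 24 HAI), 1 to 427 (Dongnong47 96 HAI) and 0 to 1 (P203 24 HAI). They called 0 (P203 48 HAI, P746 24 HAI), 0 to 1256 (P203 96 HAI), 0 to 1425 (P746 48 HAI) and 0 to 94 (P746 96 HAI). For mock leaves the members called were 1 to 36 (Dongnong47 96 against 24 HAI), 0 throughout and 0 to 11 (P203 48 against 24 and 96 against 48 HAI), 1 to 58 and 12 to 38 (P746, same times), 0 throughout (P203 against Dongnong47) and 0 to 1 (P746 against Dongnong47). In the same order, all genes called were 116 to 3020, 0 throughout, 6 to 1652, 96 to 8025, 1329 to 3665, 0 to 33 and 0 to 85. Medians of the members ran from -0.73 to 0.076 (Dongnong47 24 HAI, above 0 only without mock 1), -0.43 to 0.54 (P203 48 HAI, 0.13 without infested 2), -0.15 to 0.88 (P203 mock 96 against 48 HAI, below 0 only without 96 HAI mock 3) and -0.50 to 0.12 (P203 against Dongnong47). Over these alternatives, 136 counts of calls stayed within 1.5 times the reported one and 67 did not. Every reported 0 that stayed 0 is among the 136, also where almost no gene was called, so they do not measure stability of calls. Of the log2 fold changes of single genes named by their test, 177 kept their call and 63 lost it, none turning direction. With 3 replicates a group, the 92 members that were called nowhere may still differ by less than the spread between replicates lets these tests see.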
